A study of Mus musculus with 9 samples.

Results

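Described here are 9 genes of 46517 in the expression table, chosen by name: the TREM genes Trem1 and Trem3, the TREM-like genes Treml2 and Treml4, the CD300 genes Cd300a, Cd300lb, Cd300ld and Cd300lf, and Tyrobp. Their RNA was measured in neutrophils sorted at day 27 from bone marrow, blood and pancreatic tumor of OT mice, which are C57BL/6 mice whose pancreas received an orthotopic transplant of pancreatic tumor cells, 1 luciferase-expressing line derived from the KPC mouse model. There were 3 libraries per compartment, each from a pool of 5 mice and each from an independent experiment. The sorted cells were CD45+ and Ly6G+ Ly6C+ and lacked CD3, B220 and NK1.1, and the bone marrow samples were labelled Ly6G high. All 9 libraries came from tumor-bearing mice, so each comparison is between sites of mice that all carried the same transplanted line, and no tumor-free group is analysed here.

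The TREM and CD300 receptors are small immunoglobulin-domain proteins on the surface of myeloid cells. Activating members carry almost no signaling tail of their own and pair with an adaptor such as DAP12, the product of Tyrobp, whose phosphorylated motif recruits the kinase Syk, whereas inhibitory members carry tail motifs that recruit phosphatases such as SHP-1. TREM1 is best known for amplifying Toll-like receptor responses of neutrophils and monocytes, and several CD300 proteins bind lipids exposed on dying cells.

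Both families lie in gene clusters. On GRCm38, Trem1 (ENSMUSG00000042265.12, chr17:48232768-48246924), Trem3 (ENSMUSG00000041754.5, chr17:48247777-48258841), Treml4 (ENSMUSG00000051682.14, chr17:48264295-48275360) and Treml2 (ENSMUSG00000071068.6, chr17:48299498-48312533) follow each other on the plus strand. Cd300a (ENSMUSG00000034652.11, chr11:114890041-114904654) is on the plus strand of chromosome 11, and Cd300lb (ENSMUSG00000063193.7, chr11:114922781-114934386), Cd300ld (ENSMUSG00000034641.2, chr11:114982274-114989922) and Cd300lf (ENSMUSG00000047798.14, chr11:115116214-115133992) follow on the minus strand. Tyrobp (ENSMUSG00000030579.9, chr7:30413760-30417585, plus strand) lies apart from both. No exon of the 9 genes overlapped an exon of another annotated gene.

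The promoters of Trem1 and Cd300lf, the receptors with the most RNA of their family in tumor, and of Cd300lb, the receptor with the largest fall from blood to tumor, are shown to set these diverging genes side by side. Each is the 250 bases before the RefSeq start on GRCm38.p6, which need not be the start of the gene model given above, written on the strand of the gene. Capitals mark matches, on either strand, to the letters GAGGAA (PU.1), TGANTCA (AP-1), ACGTG or GCGTG (HIF), GGGNNNNNCC (NF-kB) and TTGCNNAA (C/EBP).
Trem1 (chr17:48232489-48232738, plus strand): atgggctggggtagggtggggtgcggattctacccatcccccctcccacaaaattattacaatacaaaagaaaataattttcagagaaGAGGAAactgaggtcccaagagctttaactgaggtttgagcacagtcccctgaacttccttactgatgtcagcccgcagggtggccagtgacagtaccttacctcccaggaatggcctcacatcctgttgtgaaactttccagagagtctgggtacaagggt
Cd300lf (chr11:115133993-115134242, minus strand): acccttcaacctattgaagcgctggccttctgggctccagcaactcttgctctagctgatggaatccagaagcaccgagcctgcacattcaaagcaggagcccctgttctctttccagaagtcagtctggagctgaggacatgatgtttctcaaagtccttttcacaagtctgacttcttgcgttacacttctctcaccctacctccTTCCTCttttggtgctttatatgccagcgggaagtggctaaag
Cd300lb (chr11:114934372-114934621, minus strand): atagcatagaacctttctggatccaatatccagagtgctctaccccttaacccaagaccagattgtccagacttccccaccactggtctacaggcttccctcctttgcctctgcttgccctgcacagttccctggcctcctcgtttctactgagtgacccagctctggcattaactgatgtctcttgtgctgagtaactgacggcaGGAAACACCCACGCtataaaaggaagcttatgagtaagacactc
The Trem1 window held 1 match, the PU.1 letters with their first base at -162 from the start. The Cd300lf window held 1 match, the same letters on the opposite strand at -43. In the Cd300lb window an NF-kB match at -44 and a HIF match at -35 shared a base, both on the opposite strand. Among 32851 RefSeq promoter windows, 23.3% held the PU.1 letters, 6.75% the AP-1 letters, 38.6% the HIF letters, 45.8% the NF-kB letters and 9.56% the C/EBP letters. A missing match says only that these letters are not in the window. Of the 9 genes, 6 had an entry in the promoter table.

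The libraries held 4580807 to 7949367 reads on genes. The labelled cell type was checked on 8 neutrophil markers (such as S100a8, Ly6g and Cxcr2), which all had reads in every compartment and summed to 41900 to 43500 RPM (reads scaled to library size) in the bone marrow libraries, 32500 to 33100 in those of blood and 10400 to 12000 in those of tumor. Tumor libraries also held reads of 7 epithelial markers (2410 to 5180 by the same measure, against 7.03 to 134 in the other libraries) and of 6 fibroblast markers (1100 to 1350, against 0.18 to 7.96). The 10 monocyte and macrophage markers were highest in blood, where they summed to 1090 to 1260 (Ms4a7 at 0), with 324 to 348 in bone marrow and 383 to 497 in tumor. The 6 platelet markers summed to 361 to 492 in blood and to 2.75 to 11.4 elsewhere. The part of other cells in the results below was not tested. The authors scaled library sizes by 0.796 to 0.881 in bone marrow and blood and by 1.08 to 1.22 in tumor. Plain library totals move the median gene by 0.42 on the log2 scale in favor of tumor, and raise the share of higher calls among all calls from 44.96% to 60.15% in tumor against blood and from 40.48% to 60.94% in tumor against bone marrow. Values with plain totals are therefore given where they matter.

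Tumor neutrophils had less RNA of the adaptor gene and of most receptors than blood neutrophils, and slightly more RNA of Trem1. Of the 9 genes, 9 passed the limma threshold in tumor against blood, 1 higher and 8 lower, where 62.6% of the 7794 genes tested passed (28.1% higher and 34.5% lower). In tumor against bone marrow 9 passed as well, 2 higher (Trem1 and Cd300lf) and 7 lower, where 55.3% of all genes passed (22.4% higher and 32.9% lower). The median log2 fold change of the 9 genes was -2.29 in tumor against blood and -1.04 in tumor against bone marrow, beside -0.17 and -0.21 over all genes tested (with plain totals -1.84 and -0.59, beside 0.24 and 0.21). In blood against bone marrow 6 genes passed, all higher, where 44.2% of all genes passed (20.6% higher), and the median of the 9 was 0.85 beside -0.04. Both tumor comparisons use the same 3 tumor libraries, and the 2 comparisons with blood the same 3 blood libraries. In such bulk samples, fewer cells that express a gene and less RNA per cell cannot be told apart.

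**Figure D1:**
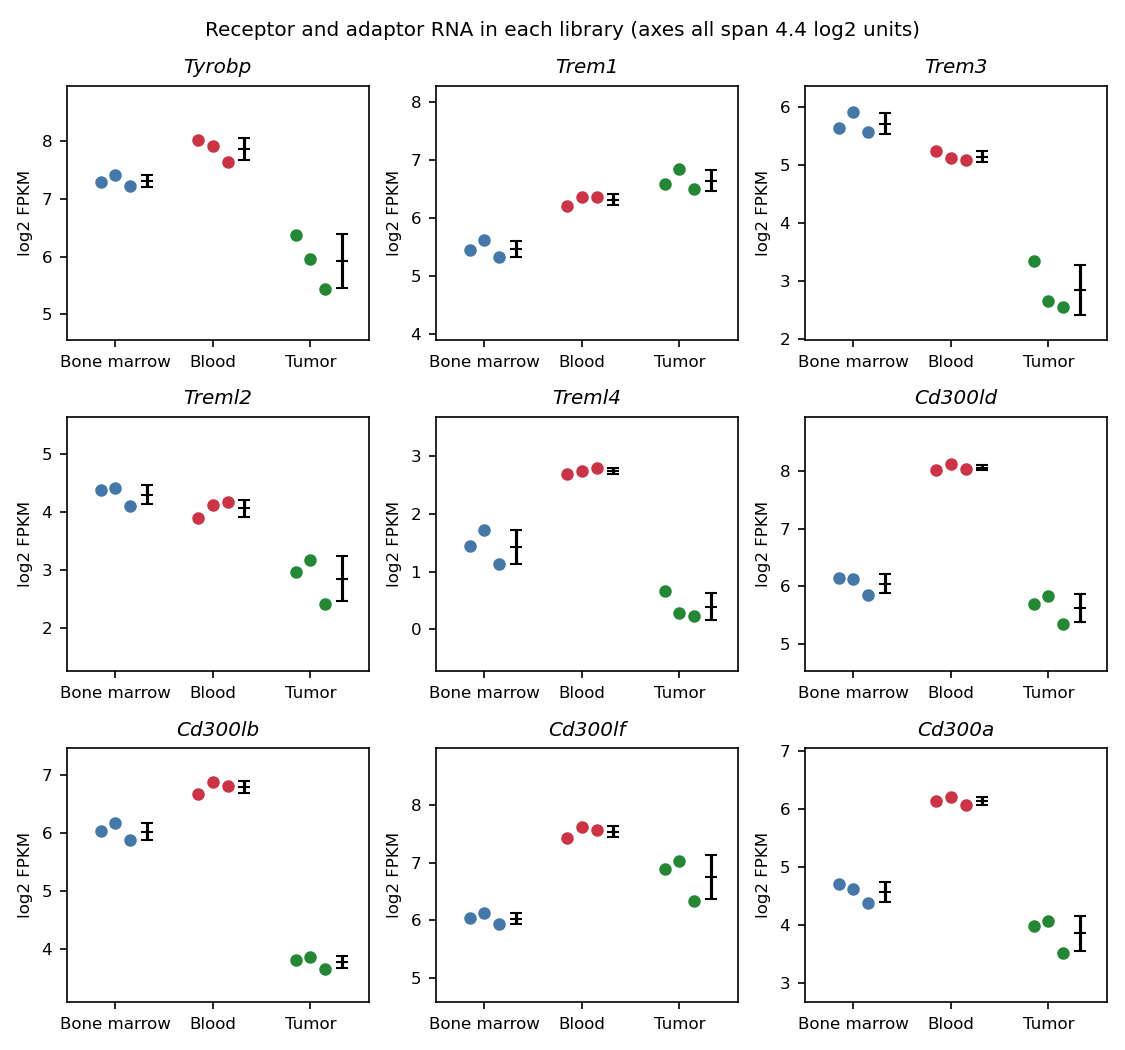
Log2 FPKM of each gene (vertical axes, each spanning 4.4 log2 units) in the 3 libraries of each compartment (colored points, in replicate order), with the mean and SD beside them (black). Trem1 alone has its highest values in tumor, and the blood libraries are highest for Tyrobp, Treml4 and the 4 CD300 genes.

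Tyrobp, the adaptor, had log2 FPKM values of 7.29, 7.41 and 7.22 in bone marrow, 8.02, 7.91 and 7.64 in blood, and 6.38, 5.96 and 5.45 in tumor. The tumor libraries were the lowest 3 of the 9, as for 25.9% of the genes tested, and also the most spread. Tyrobp RNA was 3.82-fold lower in tumor than in blood (log2 fold change -1.93, SE 0.22, adjusted p = 0.000164) and 2.61-fold lower than in bone marrow (log2 fold change -1.38, adjusted p = 0.00116). The blood values lay above the bone marrow values, yet the difference of 0.55 did not pass (adjusted p = 0.0786), although it did in 6 of 21 alternative analyses, among them leaving out tumor library 1 (adjusted p = 0.0311) or 3 (adjusted p = 0.0215).

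Trem1 encodes the activating receptor TREM1. Its log2 FPKM values were 5.45, 5.61 and 5.33 in bone marrow, 6.21, 6.37 and 6.37 in blood, and 6.58, 6.85 and 6.50 in tumor. All 3 tumor libraries lay above all 6 others, as for 19.7% of the genes tested, and the blood libraries lay above those of bone marrow (27.8% of the genes tested). Taken pair by pair, 30.0% of the genes tested had a tumor range above that of blood and 26.2% above that of bone marrow. Trem1 RNA was 2.26-fold above bone marrow in tumor (log2 fold change 1.18, SE 0.12, adjusted p = 0.000101) and 1.80-fold higher in blood than in bone marrow (0.85, adjusted p = 0.000933). Against blood the rise in tumor was small, 0.33 (SE 0.12, 95% CI 0.05 to 0.60, adjusted p = 0.041). That call was lost in 10 of 21 alternatives, with adjusted p up to 0.14. Among them were leaving out any blood library (log2 fold change 0.27 to 0.36), bone marrow library 1 (0.33), or tumor library 1 (0.36) or 2 (0.23). With plain library totals the rise was 0.78 (adjusted p = 8.52e-05).

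Trem3, whose product is a DAP12-paired activating receptor of mouse myeloid cells, moved the other way although its gene starts just beyond the end of Trem1. Its log2 FPKM values were 5.64, 5.92 and 5.58 in bone marrow, 5.25, 5.12 and 5.08 in blood, and 3.34, 2.66 and 2.54 in tumor. The 3 compartments did not overlap. Of the genes tested, 37.0% had a tumor range below that of blood, 37.7% below that of bone marrow, and 31.0% a blood range below that of bone marrow. Trem3 RNA was 7.32-fold lower in tumor than in bone marrow (log2 fold change -2.87, SE 0.21, adjusted p = 1.81e-05) and 4.94-fold lower than in blood (-2.30, adjusted p = 4.44e-05). The difference of -0.57 between blood and bone marrow missed the threshold (adjusted p = 0.056) and passed it in 9 of 21 alternatives (adjusted p = 0.047 with plain totals, 0.0066 without tumor library 1 and 0.0432 without tumor library 3). For each Trem3 read there were 1.12, 1.03 and 1.07 Trem1 reads in the bone marrow libraries, 2.48, 3.05 and 3.12 in blood, and 12.1, 23.3 and 19.9 in tumor. This ratio within a library does not depend on library scaling, and its 3 ranges were separate.

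The TREM-like genes were lowest in tumor. Treml2, which encodes a receptor of neutrophils, macrophages and B cells, had values of 4.39, 4.42 and 4.11 in bone marrow, 3.90, 4.12 and 4.17 in blood, and 2.96, 3.17 and 2.42 in tumor. Bone marrow and blood overlapped (difference -0.24, adjusted p = 0.357), and tumor lay below both. Treml2 fell by 1.22 on the log2 scale in tumor against blood (adjusted p = 0.000907; -0.77 with plain totals) and by 1.46 against bone marrow (adjusted p = 0.000436). Treml4, a DAP12-paired receptor that binds dying cells, had the least RNA of the 9 genes, with 101 to 108 reads per tumor library. Its values were 1.44, 1.71 and 1.12 in bone marrow, 2.70, 2.73 and 2.79 in blood, and 0.66, 0.28 and 0.23 in tumor. Each compartment was separate from the others, with blood on top. Treml4 RNA was 5.10-fold lower in tumor than in blood (log2 fold change -2.35, adjusted p = 2.26e-05), 2.05-fold lower than in bone marrow (-1.04, adjusted p = 0.00181; -0.59 with plain totals), and 2.48-fold higher in blood than in bone marrow (1.31, adjusted p = 0.000924).

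Of the activating CD300 receptors, Cd300lb had the largest fall of the 9 genes from blood to tumor. Cd300lb encodes a DAP12-paired receptor, and its values were 6.03, 6.17 and 5.88 in bone marrow, 6.68, 6.88 and 6.82 in blood, and 3.81, 3.85 and 3.64 in tumor. The tumor libraries were close together and more than 2 log2 units below every other library. Cd300lb RNA was 8.15-fold lower in tumor than in blood (log2 fold change -3.03, SE 0.10, adjusted p = 2.45e-06) and 4.79-fold lower than in bone marrow (-2.26, adjusted p = 3.42e-06), and it was 1.70-fold higher in blood than in bone marrow (0.77, adjusted p = 0.000815). Cd300ld, an activating receptor that signals through the Fc receptor gamma chain, had values of 6.15, 6.13 and 5.86 in bone marrow, 8.02, 8.11 and 8.04 in blood, and 5.69, 5.83 and 5.35 in tumor. Blood stood far above the rest, and the gap between tumor and bone marrow was narrow. Cd300ld was 4.02-fold higher in blood than in bone marrow (2.01, adjusted p = 3.74e-05) and 5.40-fold lower in tumor than in blood (-2.43, adjusted p = 6.16e-06). The difference of -0.42 between tumor and bone marrow (adjusted p = 0.0311) became 0.03 with plain totals (adjusted p = 0.838), and its call was lost in 11 of 21 alternatives, including without bone marrow library 1 (-0.37) or 2 (-0.38) and without tumor library 1 (-0.46) or 3 (-0.29).

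Of the CD300 genes with inhibitory tail motifs, Cd300lf kept more RNA in tumor than Cd300a. Cd300lf encodes a receptor for phosphatidylserine and ceramide, and its values were 6.04, 6.12 and 5.93 in bone marrow, 7.42, 7.61 and 7.56 in blood, and 6.89, 7.03 and 6.33 in tumor. Tumor lay between bone marrow and blood without overlap. Cd300lf was 2.84-fold higher in blood than in bone marrow (adjusted p = 0.000406) and 1.65-fold higher in tumor than in bone marrow (0.72, SE 0.18, adjusted p = 0.00912; 1.17 with plain totals). The second call was lost without a filter on low values (adjusted p = 0.055). It was 1.72-fold lower in tumor than in blood (-0.78, adjusted p = 0.00514), a call lost with plain totals (-0.33, adjusted p = 0.061). Cd300a, a receptor for phosphatidylserine and phosphatidylethanolamine, had values of 4.70, 4.61 and 4.37 in bone marrow, 6.14, 6.21 and 6.07 in blood, and 3.97, 4.07 and 3.51 in tumor. Blood was again the highest and tumor the lowest, with no overlap. Cd300a was 2.98-fold higher in blood than in bone marrow (1.58, adjusted p = 0.000199) and 4.88-fold lower in tumor than in blood (-2.29, adjusted p = 1.4e-05). It was 1.64-fold lower in tumor than in bone marrow (-0.71, adjusted p = 0.0059), a call lost with plain totals (-0.26, adjusted p = 0.107).

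**Figure D2:**
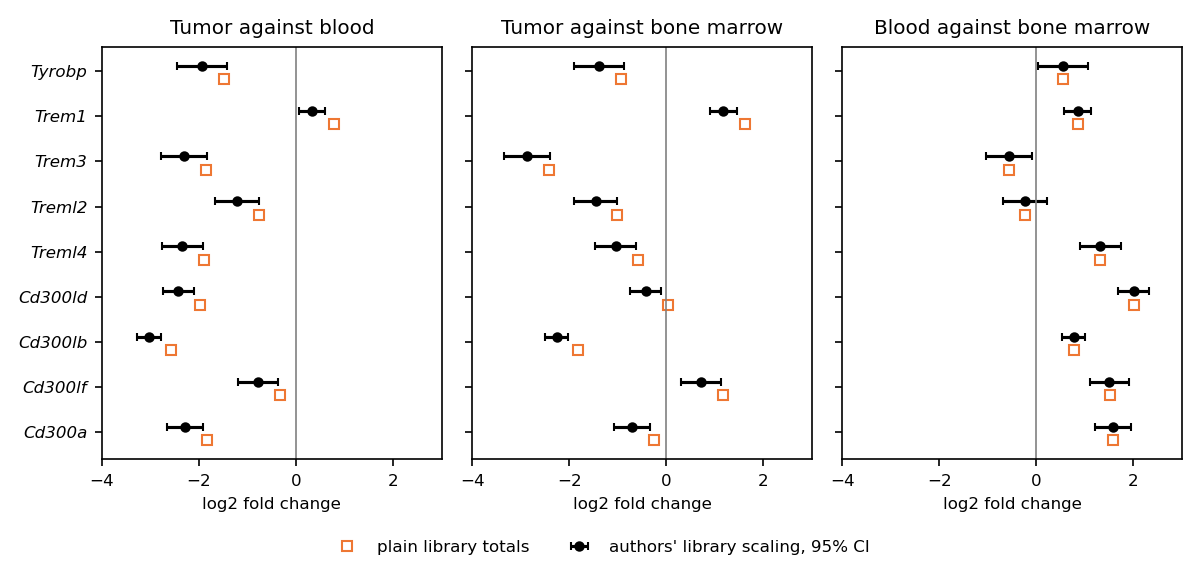
Log2 fold change (horizontal axes) of each gene in the 3 comparisons, with the authors' library scaling (black points, bars are 95% confidence intervals) and with plain library totals (orange squares). The squares lie to the right of the points in both tumor comparisons, and Cd300ld in tumor against bone marrow moves from -0.42 to 0.03.

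The rise from bone marrow to blood stood beside a rise of the monocyte and macrophage markers. The 6 genes that rose were Trem1, Treml4 and the 4 CD300 genes. The marker Csf1r had 4796 to 6885 reads in the blood libraries, against 1808 to 2123 for bone marrow and 1254 to 1709 for tumor. Cx3cr1, another marker of that list, had 22 to 66, 29 to 85 and 0 to 5 reads in the same order. Tumor libraries held less of the monocyte and macrophage list than blood while Trem1 was higher, and the part of those cells was not tested.

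Between genes, levels were compared per exon length (RPKM, reads scaled to exon length and to the library total), since the deposited values use the genomic span of most genes. In bone marrow the order began with Tyrobp at 756 ± 12.7 (SD, n = 3) and Trem3 at 492 ± 39.7, followed by Cd300lb at 218, Cd300lf at 189, Trem1 at 175 and Cd300ld at 161. The ranges of Trem1 and Cd300ld overlapped. In blood Tyrobp, at 1117 ± 159 (SD, n = 3), was followed by Cd300ld at 647, Cd300lf at 538, and Cd300lb, Trem3 and Trem1 at 371, 333 and 317, of which neighbours overlapped. In tumor Trem1 came first at 543 ± 40.9 (SD, n = 3), above Cd300lf at 432 ± 81.9 and Tyrobp at 408 ± 120, and then came Cd300ld at 164, Trem3 at 94.5 and Cd300lb at 62.1. The range of Tyrobp in tumor (303 to 539) overlapped both that of Cd300lf (339 to 490) and that of Trem1 (516 to 590). Cd300a (61.3, 183 and 51.4 in bone marrow, blood and tumor), Treml2 (42.2, 35.8 and 21.3) and Treml4 (12.6, 31.1 and 8.37) closed the order in every compartment, and each was separate from its neighbours.

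Trem1 and Cd300lf thus made up most of the RNA of the 4 genes described here from their families in tumor. Of the summed level of the 4 TREM and TREM-like genes, Trem1 took 81.4% ± 4.49 in the tumor libraries, 44.2% ± 2.56 in those of blood and 24.3% ± 0.636 in those of bone marrow (SD, n = 3). In the same order Trem3 took 14.2%, 46.5% and 68.1%. The order of these genes was turned around between bone marrow and tumor, and their shares were near each other in blood. Of the summed level of the 4 CD300 genes, Cd300lf took 60.6% ± 2.49 in the tumor libraries, 30.9% ± 0.754 in those of blood and 30.1% ± 0.915 in those of bone marrow (SD, n = 3). In the same order Cd300lb took 8.88%, 21.3% and 34.6%, Cd300ld 23.3%, 37.2% and 25.5%, and Cd300a 7.25%, 10.5% and 9.74%. The number of Cd300lf reads per Cd300lb read ranged over 9.84 to 13.9 in tumor, over 2.55 to 2.57 in blood and over 1.48 to 1.59 in bone marrow. These shares and ratios within a library do not depend on library scaling.

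**Figure D3:**
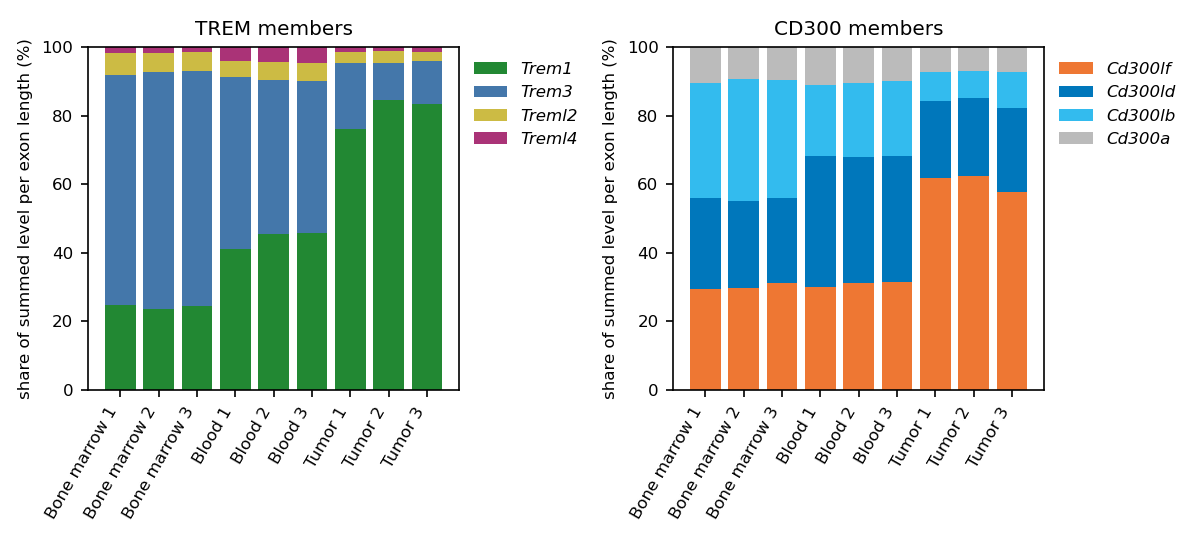
Share of each gene in the summed level per exon length of its family (percent, stacked to 100) in each of the 9 libraries, with the TREM and TREM-like genes on the left and the CD300 genes on the right. Trem1 takes 76.2% to 84.5% of the left bars in tumor, and Cd300lf 57.7% to 62.3% of the right bars.

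Receptors that signal through DAP12 need the adaptor at the surface, so each receptor was also set against Tyrobp within its library. The log2 ratio of Trem1 to Tyrobp was -1.84, -1.80 and -1.89 in bone marrow, -1.81, -1.54 and -1.28 in blood, and 0.20, 0.89 and 1.05 in tumor. The tumor libraries were the highest 3 of the 9. The ratio uses the deposited lengths, so its zero carries no meaning and only differences between compartments are read. Tyrobp itself changed in tumor by -1.93 against blood and -1.38 against bone marrow, while the median gene changed by -0.17 and -0.21. Any gene that fell less than Tyrobp thus has a higher ratio in tumor. The share of all genes whose ratios to Tyrobp separate in this way was not computed. The ratio in tumor exceeded that in blood by 2.26 and that in bone marrow by 2.56. Each difference had an exact two-sided permutation p of 0.1, the smallest that 3 against 3 libraries allow, and 0.133 after adjustment over 24 comparisons, so the design cannot reach a threshold of 0.05. For Cd300lf, which carries its own tail motifs, the log2 ratio to Tyrobp was -1.26, -1.29 and -1.29 in bone marrow, -0.60, -0.30 and -0.08 in blood, and 0.51, 1.08 and 0.88 in tumor. For Cd300lf the 3 compartments were separate, whereas for Trem1 blood and bone marrow overlapped. Relative to Tyrobp, Cd300lb in tumor differed by -1.10 from blood and by -0.88 from bone marrow, and Trem3 by -0.37 and -1.49, with no overlap. The ratio of Treml2 in tumor differed by -0.08 from bone marrow (exact permutation p = 0.8) and by 0.72 from blood (exact permutation p = 0.1). The remaining ratios, those of Cd300a, Cd300ld and Treml4, differed between tumor and blood by -0.36, -0.50 and -0.42 (exact permutation p of 0.2, 0.1 and 0.2), and between tumor and bone marrow by 0.67, 0.96 and 0.34 (exact permutation p of 0.1, 0.1 and 0.2).

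**Figure D4:**
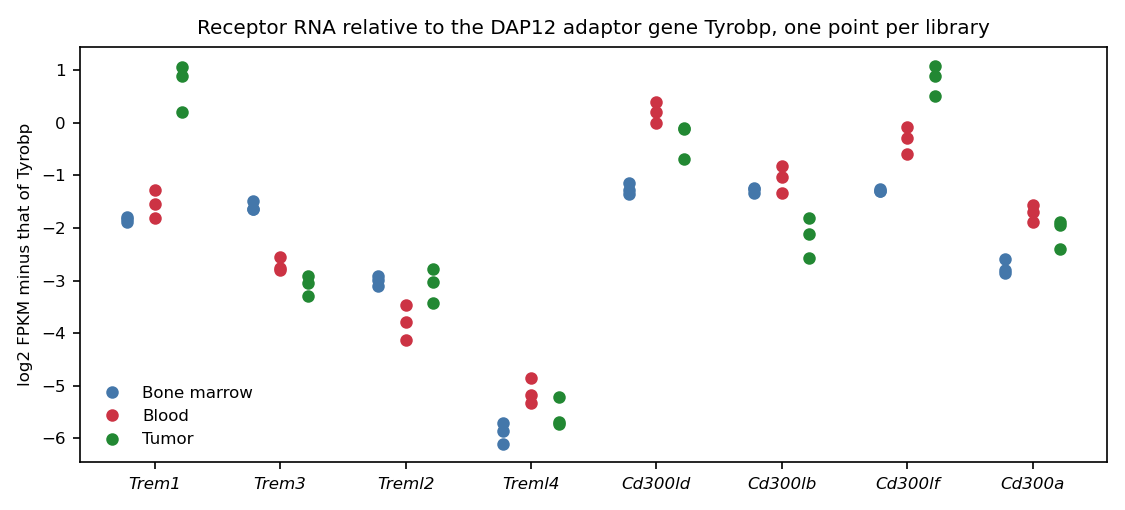
Log2 FPKM of each receptor gene minus that of Tyrobp (vertical axis), one point per library, colored by compartment. The tumor points of Trem1 (0.20 to 1.05) and Cd300lf (0.51 to 1.08) lie above all bone marrow and blood points of the same gene. Tyrobp itself was lowest in tumor, so any gene that fell less than Tyrobp has a higher ratio there.

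Of the other CD300 and TREM genes, 11 were found in the table and 7 had reads. AF251705, named Cd300c2 in GENCODE M21, had the most, with 663 to 881 reads in blood libraries, 386 to 418 in those of bone marrow and 389 to 572 in those of tumor. It was lower in tumor than in blood (log2 fold change -1.26, adjusted p = 0.0013) and higher in blood than in bone marrow (1.34, adjusted p = 0.0019), while the difference of 0.08 between tumor and bone marrow did not pass (adjusted p = 0.77; with plain totals 0.53, adjusted p = 0.048). Treml1, a receptor of platelets, had 152 to 230 reads in blood, 0 to 2 in bone marrow and 0 to 6 in tumor. Trem2, known from macrophages, had 1 to 6 reads in blood, 19 to 32 in bone marrow and 14 to 19 in tumor. In the same order Cd300e had 9 to 15, 16 to 20 and 0 to 12 reads, Cd300c 3 to 20, 1 to 6 and 0 to 4, and Cd300lg, known from endothelium, 0 to 6, 11 to 24 and 15 to 19. Cd300lh had 1 read in 1 blood library. Gm11709, Gm11710, Gm11711 and Gm5152 had no read, which allows up to 0.377 to 0.655 RPM in a library (3 counts, counting error only). Cd300lh, Gm11709, Gm11710 and Gm11711 carry names of the Cd300ld series in M21, and the split of reads between such related genes and Cd300ld is uncertain.

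The genes of a wider partner list were mostly lower in tumor as well. The list holds signaling genes (adaptors, kinases, scaffolds and effectors, and phosphatases), and also other receptors, ligands and co-receptors. Of 57 partner genes found, 50 passed the filter (log2 FPKM over 0 in at least 3 libraries) and were tested. They included 11 other receptors that use DAP12 or the Fc receptor gamma chain, 13 other inhibitory receptors and 5 ligands or co-receptors. Of these 50, 1 was higher and 39 were lower in tumor against blood, with a median log2 fold change of -1.48 (28.1% of all genes tested were higher and 34.5% lower). In tumor against bone marrow 7 were higher and 34 lower, with a median of -1.08 (22.4% and 32.9% of all genes). In blood against bone marrow 25 were higher and 6 lower, with a median of 0.46 (20.6% and 23.6% of all genes). The medians over all genes tested were -0.17, -0.21 and -0.04. With plain totals the counts were 5 and 37, 13 and 26, and 27 and 6. The list was chosen for its known roles, with results of these data known.

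The adaptors and the kinases tested were lower in tumor than in blood, as Tyrobp was. Fcer1g, the Fc receptor gamma chain, fell by 1.49 on the log2 scale against blood (adjusted p = 0.00097) and by 1.41 against bone marrow (adjusted p = 0.0016), and Hcst, which encodes DAP10 and lies beside Tyrobp, fell by 2.11 and 1.86. All 5 kinases passed against blood and 4 against bone marrow. Fgr, of the Src family, changed by -2.36 against blood and by -1.48 against bone marrow. Syk, the kinase that docks on DAP12, fell by 1.18 against blood (adjusted p = 0.0013), while -0.43 against bone marrow did not pass (adjusted p = 0.106). Of 10 scaffold and effector genes 9 fell against blood and 8 against bone marrow. With plain totals 6 fell and 1, Lcp2, rose against bone marrow (0.31, adjusted p = 0.043). Among them were Plcg2, a phospholipase (-2.41 and -2.78), Pik3cd, a leukocyte PI3-kinase (-2.76 and -1.63), and Card9, a scaffold (-2.36 and -1.84).

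The inhibitory side was mostly lower too. Of 4 phosphatase genes 3 fell against blood and 4 against bone marrow (2 with plain totals). Ptpn6, which encodes SHP-1, changed by -2.17 against blood and by -1.32 against bone marrow, and Inpp5d, which encodes SHIP-1, changed by -0.87 and -0.39 (adjusted p = 0.00083 and 0.042). The second value was 0.07 with plain totals, so its direction rests on the scaling. Of 13 other inhibitory receptors 9 fell and 1 rose against blood, and 9 fell and 3 rose against bone marrow. The largest changes against bone marrow were those of Clec4a2 (-3.74), Ceacam1 (-2.96), Clec12a (-2.81) and Siglecf (2.59). Siglecf, known from eosinophils, was 2.26 log2 units higher in blood than in bone marrow, and its tumor value differed from blood by 0.33 (adjusted p = 0.219; with plain totals 0.78, adjusted p = 0.0077). Fcgr2b, the inhibitory Fc receptor, rose against both (0.69 and 0.67), and Lilrb4a against bone marrow (1.02); these 2 are named after their values were seen.

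Among 11 other receptors that use DAP12 or the Fc receptor gamma chain, none was higher and 8 were lower in tumor against blood (2 and 7 with plain totals), and 2 were higher and 5 lower against bone marrow (6 and 3 with plain totals). Clec4n, which encodes Dectin-2, was 3.46 higher in tumor and 3.07 higher in blood than in bone marrow, and its values in tumor and blood differed by 0.38 (adjusted p = 0.317; with plain totals 0.83, adjusted p = 0.031). Clec4e, which encodes Mincle and is named after its values were seen, exceeded its bone marrow level by 1.16 in tumor (adjusted p = 0.0061). Pilrb2 (-2.66 and -2.49) and Pira2 (-2.58 and -2.31) fell most, though both have near-identical copies whose reads can be split. Of the ligands and co-receptors, Pglyrp1, a granule protein and ligand of TREM1, had the largest fall of the partner list, with a log2 fold change of -2.96 against blood and -3.89 against bone marrow (adjusted p = 5.82e-05 and 1.83e-05). Tlr4 in tumor exceeded bone marrow by 1.36 and differed by 0.09 from blood (adjusted p = 0.748; with plain totals 0.54, adjusted p = 0.052).

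**Figure D5:**
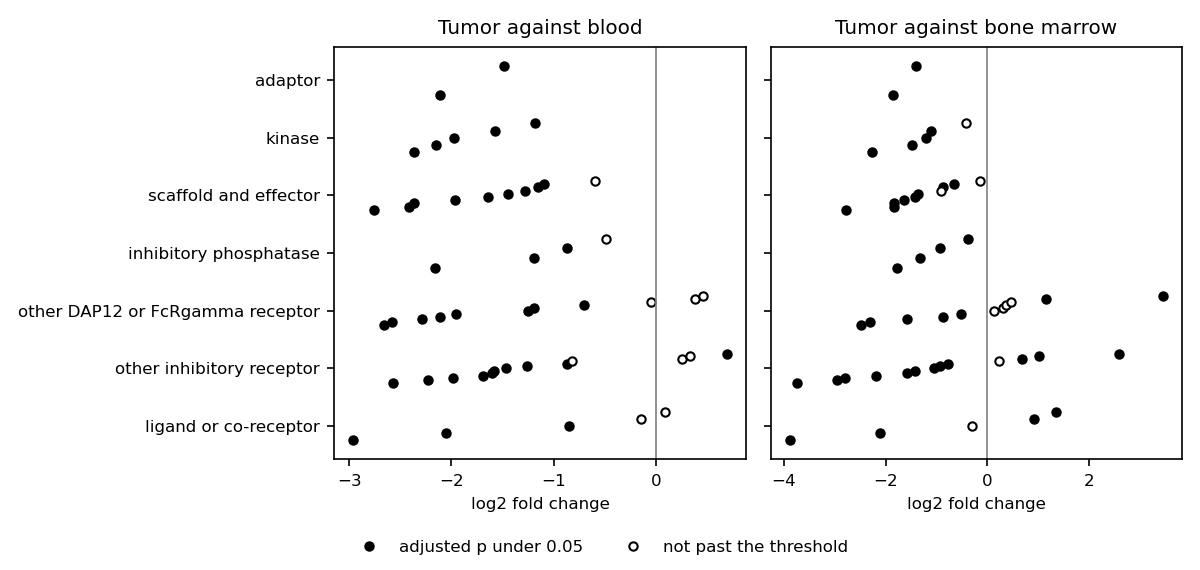
Log2 fold change (horizontal axes) of the 50 partner genes tested in tumor against blood and in tumor against bone marrow, by role (rows), one point per gene. Tec, a kinase of the list that did not pass the filter, is not shown. Filled points passed an adjusted p of 0.05, and the adaptor, kinase, scaffold and phosphatase points all lie below 0 with the authors' scaling (with plain totals Syk, Lcp2 and Inpp5d in tumor against bone marrow are at 0.02, 0.31 and 0.07).

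For each gene, the 2 genes with the most similar log2 FPKM over the 9 libraries were named as a description, since 9 libraries in 3 compartments give high correlations easily. Trem1 was closest to Nlrp3 (r = 0.996), which encodes an inflammasome sensor, and Dusp1 (0.992), which encodes a MAP kinase phosphatase. Cd300lf was closest to Tlr6 (0.994) and Klf6 (0.991), and Cd300lb to Lcp1 and Mical1 (both 0.999). Cd300ld was closest to H2-Q10 (0.999) and Shisa5 (0.997), and Cd300a to Samhd1 (0.999) and Ppt1 (0.997). Trem3 was closest to Mon1b and Mcemp1 (both 0.995), Treml2 to Stx11 (0.996) and Ostf1 (0.989), Treml4 to Hrh2 (0.997) and Eif4ebp1 (0.996), and Tyrobp to Pilrb1 (0.992) and Coro1b (0.991). The points share their library and its scaling.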

How the data were processed

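Neutrophil RNA was sequenced by the authors in 9 libraries, each from a pool of 5 OT mice, after SMARTSeq v2 amplification. The submitters' processing notes name STAR 2.5.2b, featureCounts 1.5.0 and edgeR 3.8.6, and the build was GRCm38. The deposited values are log2 FPKM of 46517 genes, which the authors had calculated with scaled library sizes and a small constant (0.25 reads). Whole reads were recovered from the steps of these values for 100% of genes (tolerance 0.001 reads), and gave the plain library totals and levels per exon length (GENCODE M21 exons). The length behind the deposited values equalled the genomic span for 84.59% of genes found in M21.

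Genes with log2 FPKM over 0 in at least 3 libraries (7794, all 9 members included) entered 1 limma fit of all 3 compartments without covariates (limma 3.58.1, R 4.3.3), with a variance prior that follows the mean level. P-values were adjusted over all genes tested (Benjamini-Hochberg, threshold 0.05), and every adjusted p given is from limma unless a permutation is named. The script was tested on simulated data. Ratios to Tyrobp were compared with exact permutation tests (scipy 1.17.1). The alternatives were other filters, pseudocounts, quantile normalization, plain totals, limma-voom on recovered reads, no trend, a replicate block, a minimum log2 change of 1, 2 compartments alone and each library left out. Intervals cover the spread between pools only, and reads were not corrected for PCR duplicates.

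The 9 genes, the lists and the tests were chosen with earlier results of these data known. Named partner genes are those past the threshold, at most 4 per role and comparison by size, with Fcer1g, Hcst, Syk, Ptpn6, Inpp5d and Pglyrp1 named whatever their values, and family genes with reads. For each member the 2 genes of highest Pearson correlation are named. A partner gene that this rule would name is not reported here.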

Additional observations from a re-analysis of the deposited data

How the results depend on the processing

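Of 27 fold changes (9 genes in 3 comparisons), 18 kept their direction and side of the threshold in all 21 alternatives. The other 9 changed in some: Cd300a, Cd300ld and Cd300lf in tumor against bone marrow, Trem1 and Cd300lf in tumor against blood, and Cd300lb, Trem1, Trem3 and Tyrobp between blood and bone marrow. Only Cd300ld changed direction, to 0.028 with plain totals and to 0.027 with limma-voom on plain totals, where the tumor libraries are no longer scaled down.

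The number of all genes called moved by over 1.5 times under several settings. With no filter it was 7532 in tumor against blood. With a filter of log2 FPKM over 2 it was 2562 for that comparison, 2378 for tumor against bone marrow and 1924 for blood against bone marrow. With limma-voom it was 9947, 9323 and 5255 on plain totals and 9759, 8914 and 5361 on scaled library sizes. With a log2 change of at least 1 it was 2176 in blood against bone marrow, and 14 of the partner genes were then called, against 20 with no filter and 31 as reported.

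For the ratios to Tyrobp, a pseudocount of 1 turned Treml2 in tumor against bone marrow to 0.029 and Treml4 in tumor against blood to 0.18. Leaving out 1 library at a time gave -0.22 to 0.094 for Treml2 in tumor against bone marrow, the positive value without tumor library 1. With the length used in the deposited values, 4, 4 and 5 of the 9 genes kept their rank in bone marrow, blood and tumor. The causes of these changes were not tested beyond the construction of each setting.

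Libraries of different compartments share replicate numbers, and deviations of same-numbered libraries correlated by -0.07 to 0.11. Deviations from a mean of 3 libraries cannot settle whether same-numbered libraries came from the same mice. The main fit left any such matching out. With the replicate block, 9, 9 and 7 of the 9 genes were called in the 3 comparisons (Tyrobp, with adjusted p = 0.0385, was the added gene in blood against bone marrow), as were 4851, 4241 and 3383 of all genes and 42, 41 and 30 of the partner genes.

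With 3 pools per compartment, the SE of the log2 fold changes of the 9 genes was 0.10 to 0.22, and exact tests could not pass 0.05.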
